A study of Mus musculus with 40 samples.

Results

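High-fat-fed mice given 75 µg of the botanical formulation Kal-1 were compared with high-fat-fed mice given 5 µg of it, by the genes expressed in the stromal vascular cells of their subcutaneous fat. The arrays were taken by their labels, as every array of either dose at weeks 3, 6, 9, 12 and 15. This gave 1 array per dose and week, so 5 arrays at 75 µg (HF75), 5 at 5 µg (HF5) and 10 of the 40 arrays in the series, paired by week. The comparison asks what differs between the highest and the lowest dose when the diet and the time on it are the same.

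Both groups were C57BL/6J mice that entered the feeding trial when weaned at an age of 3 to 4 weeks, on a sucrose-enriched diet with 60% of its calories from fat. They differed by the labelled dose of Kal-1, an aqueous mixture whose constituents the labels do not list. From each group 5 animals were killed every 3 weeks, but the labels do not say how many of them stand behind an array. The arrays hold 1-colour signals of total RNA for 40628 probes, and levels are log2 signals from which each array's own 75th percentile was taken off, so a difference of 1 is 2-fold.

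Stromal vascular cells are what remains of fat when it is digested and the buoyant fat cells are removed: preadipocytes, fibroblasts, vessel-lining cells, macrophages and lymphocytes. Under a diet rich in fat, macrophages gather around failing fat cells, take up lipid and secrete inflammatory cytokines. Such macrophages are read by their scavenger and complement receptors, their lysosomal enzymes and their chemokines.

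The labelled material was checked against marker genes. All 12 macrophage markers were well above background on all 10 arrays. The brightest was Mpeg1, a pore-forming protein of phagocytes, with a mean level of 3.07 ± 0.52 (SD) at 5 µg and 2.92 ± 0.32 at 75 µg. Of the 20546 genes tested, 15600 had a probe well above background on all 10 arrays, so meeting this mark says little about a cell type. Macrophage marker RNA was read at both doses, along with that of other cells. All 12 adipocyte markers were also well above background on all 10 arrays, among them the fatty acid carrier Fabp4, which was saturated on 9 of them. So were 11 of 12 preadipocyte and fibroblast markers, among them the collagen-binding proteoglycan Dcn, saturated on 7, and 9 of 10 endothelial markers that entered the test. A lower signal from fewer cells of a type and one from less RNA per cell cannot be told apart in such material.

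Some arrays stood apart before any test. The HF5 array of week 9 had a mean level of 5.06 over the adipocyte list, where the other HF5 arrays had 0.42 to 1.48, and of -4.65 over the M1-type inflammatory list, where the others had -0.06 to 1.36. The arrays of the diet alone (HFC) and of 20 µg (HF20) were alike in that week, with 4.86 and 5.09 over the adipocyte list and -3.52 and -3.72 over the M1-type list. HF75 had 2.53 and -0.16. So the week 9 HF5 array departed from its dose, while the week 9 HF75 array departed from the other arrays of its week. HF20 had such values in weeks 12 and 15 as well, with 5.54 and 5.12 over the adipocyte list. Over the M1-type list it had -5.73 and -4.29 in those weeks. The HF20 means given below include its arrays of weeks 9, 12 and 15. The HF5 array of week 3 had 57.3% of its spots well above background, where the others had 68.4% to 71.3%. Its mean levels were 1.41 over the complement list, 0.11 over the collagen list and -1.78 over the endothelial list, where the other HF5 arrays had at least 3.48, 2.93 and 2.22. Most list medians are given with and without weeks 3 and 9.

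The doses also differed in brightness. The 75th percentile intensities of the HF5 arrays were 648, 761, 1450, 558 and 1120 in week order, and those of the HF75 arrays were 520, 585, 442, 444 and 732. The HF75 array was the dimmer of the pair in 5 of 5 weeks, with means of 907 ± 371 and 545 ± 120 (two-sided exact sign-flip permutation test over the week pairs, p = 0.0625, the smallest p that 5 pairs allow). Saturated spots were fewer at 75 µg in 5 of 5 weeks as well, at 456 ± 120 against 665 ± 240 (exact permutation p = 0.0625). The share of spots well above background was 66.4 ± 1.66% at 75 µg and 67.2 ± 5.66% at 5 µg (exact permutation p = 0.6875). Outlier spots numbered 36.4 ± 15.8 and 41.8 ± 17.9 (exact permutation p = 0.6875). The median ratio of signal to background was 3.81 ± 0.20 and 5.17 ± 1.65 (exact permutation p = 0.1875). The part of this brightness in the gene results was not tested. The HF75 files also differ in their values: that of week 9 holds 3919 distinct values, rounded to 3 digits. That of week 12 holds 34994 and repeats a low value often, where the other 8 files hold at least 43622. Both were used as deposited, and the part of this in the dim readings was not tested.

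Marco, a scavenger receptor by which macrophages bind bacteria and debris, was higher at 75 µg in 5 of 5 weeks, and so was Ctf1, cardiotrophin 1, a cytokine of the interleukin 6 family. Lower at 75 µg in 5 of 5 weeks were Qsox1, which forms disulfide bonds in secreted proteins, Fgfr1, a receptor for fibroblast growth factors, and Cttn, cortactin, which stabilises branched actin. These genes were named by a rule that requires the same sign in every week. Probes with any of 3 short words made only of G and A, given below, were frequent among the higher genes. Of 759 genes higher in every week with a mean log2 difference of at least 1, 53.5% had such a probe. Of 198 genes lower by the same rule, 5.56% had such a probe, against 11.5% of all genes tested. Of all genes tested, 52.2% were higher on average at 75 µg. Of 12 macrophage markers 11 were lower on average at 75 µg, as were 8 of 8 mast cell markers. The 12 skeletal muscle, 12 cell cycle and 7 B cell genes tested were all higher on average, with the largest medians in week 9. Without weeks 3 and 9 the cell cycle and B cell medians were negative, and the muscle median was 0.22, from 1.29 over all weeks. Among the B cell genes, Blk entered the test by its HF75 arrays alone. None of the genes reached the adjusted threshold.

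The test was limma with the week as a block, on 20546 genes with 1 probe each. With a Benjamini-Hochberg adjusted p under 0.05 in limma, 0 genes (0%) were higher and 0 (0%) were lower at 75 µg, and the lowest adjusted p was 0.306. At an unadjusted p under 0.05, limma counted 1141 genes higher (5.55%) and 539 lower (2.62%). The methods' t-test on the same values gave 0 and 0 after adjustment, and 606 and 544 before it. A smaller set held the 15600 genes with a probe well above background on all 10 arrays. There limma counted 601 higher and 458 lower at an unadjusted p under 0.05, a smaller excess of higher genes. How many of the 1141 entered the test by their HF75 arrays alone was not counted. Over the 20546 genes, the unadjusted count of higher genes lay between 919 and 1219 when any week was left out, but that of lower genes moved with the weeks. It was 822 without week 3, 271 without week 6, 948 without week 9, 342 without week 12 and 264 without week 15. Without weeks 3 and 9 together it was 1278, against 1028 higher genes. Since each week has 1 array per dose, the weeks stand in for replicates, and the p-values measure only the spread between these arrays.

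By direction alone, 1452 genes (7.07%) were higher in all 5 week pairs and 892 (4.34%) were lower in all 5. At least 2-fold higher in all 5 pairs were 106 genes (0.516%), and at least 2-fold lower in all 5 were 2 (0.00973%), Fxr2 and Marchf3. The median difference over all genes was 0.02. Some of the 106, such as Arhgap19, entered the test by their HF75 arrays alone, and how many was not counted. Genes at the floor on both arrays of a week take the sign of the 2 floors there, which was so for 112 of the 1452 genes, 67 of the 892 and 0 of the 106. The HF75 floor was the higher in weeks 6, 9, 12 and 15, with -6.42 against -7.16 in week 12. In week 3 it was the lower, with -6.35 against -5.85. The counts depend on the weeks. The number of genes at least 2-fold higher in all 5 week pairs, 106, became 188 without week 6, 334 without week 12 and 199 without week 15. The number of genes at least 2-fold lower in all 5 week pairs, 2, became 46, 5, 44, 10 and 7 without weeks 3, 6, 9, 12 and 15. Without weeks 3 and 9 together these numbers were 136 and 206, so the excess of higher genes turned. With weeks left out, fewer pairs have to meet the rule. The 24 genes described next had the lowest unadjusted p among those at least 2-fold apart on average with the same sign in all 5 pairs, 12 in each direction, and none was past the adjusted threshold.

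Marco had levels of 0.60, 0.44, -1.69, 1.91 and -1.70 on the HF5 arrays of weeks 3 to 15, and of 3.59, 2.52, 0.72, 3.93 and 0.71 on the HF75 arrays. The groups overlapped, because weeks 9 and 15 were low at both doses and week 12 was high at both, but each HF75 array was well above its own week's HF5 array. The log2 difference was 2.38 ± 0.29 (SE), with 2.02 in week 12 and 2.41 in week 15, when both doses were scanned on the same day. The mean level was 0.35 on the 5 arrays of the high-fat diet alone at the same weeks and 0.18 on those of 20 µg, which were not tested. Single arrays of these groups were as high as HF75, as HF20 in week 3 with 3.63 and HFC in week 15 with 2.50.

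Ctf1 had levels of -0.71, -0.59, 0.04, 0.68 and -0.98 on the HF5 arrays and of 2.61, 1.09, 2.58, 3.31 and 1.21 on the HF75 arrays. The groups did not overlap, and weeks 6 and 15 were the lowest at 75 µg. The difference was 2.47 ± 0.33. HFC and HF20 had means of -0.34 and -0.03, on the side of the low dose. The probe of Ctf1 holds the word GAGAGAG.

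Arhgap19, a GTPase-activating protein of dividing cells, was not well above background on 3 of the 5 HF5 arrays, and on 2 of them, in weeks 6 and 9, it was raised to the lowest reading that was. Its levels were -5.37, -6.90, -7.48, -1.76 and -5.28 at 5 µg, and -1.05, -3.90, -1.37, 2.02 and -2.33 at 75 µg. Week 12 was the brightest at both doses and each week was higher at 75 µg. The difference was 4.03 ± 0.50. Gbp8, of the guanylate-binding proteins that interferon induces, had a difference of 2.85 ± 0.44, from 1.09 in week 15 to 4.02 in week 9.

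Of the 8 other named higher genes, 7 were named as predicted genes. By symbol, the RefSeq table lists Gm6219 as Frg2f4 and Gm9327 as Frg2f3. Gm2018 had the largest difference, 4.68 ± 0.69, followed by Gm6219 with 3.98 ± 0.55, Gm9327 with 3.57 ± 0.50, Gm2129 with 2.97 ± 0.45, Gm6809 with 2.88 ± 0.45, Gm4085 with 2.64 ± 0.40 and Gm4736 with 2.33 ± 0.37. Olfr310, an olfactory receptor gene, had 4.04 ± 0.63. Gm2129 was well above background on 1 HF5 array, and Gm4085, Gm4736, Olfr310 and Arhgap19 each on 2, while all 12 genes were so on all 5 HF75 arrays. Their differences depend on how low readings are handled. With a normexp background Arhgap19 had 2.14, Olfr310 2.13, Gm4085 1.29, Gm2129 1.20 and Gm4736 1.11. The probes of Gm6219 and Gm9327 have the same bases, yet they read -4.53 and -1.30 on the HF5 array of week 15.

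The lower genes moved by less and more evenly. Qsox1 had levels of -2.46, -0.42, -1.33, -1.56 and -1.36 at 5 µg and of -3.28, -2.75, -2.89, -3.88 and -3.45 at 75 µg. The groups did not overlap, and the HF5 array of week 3 was the lowest of its group and closest to the HF75 arrays. The difference was -1.82 ± 0.34, and the HFC and HF20 means were -1.91 and -1.10.

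Fxr2, an RNA-binding relative of the protein lost in fragile X syndrome, had levels of -0.85, -1.89, -1.89, -1.35 and -1.18 at 5 µg and of -2.51, -3.23, -2.89, -2.45 and -2.63 at 75 µg. The groups did not overlap and every week was more than 2-fold lower. The difference was -1.31 ± 0.28, with HFC and HF20 means of -1.89 and -1.63. Marchf3, a ubiquitin ligase of internal membranes, was also more than 2-fold lower in every week, with a difference of -1.42 ± 0.28.

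Fgfr1 had a difference of -1.65 ± 0.35 and Cttn one of -1.55 ± 0.32. Fgfr1 was lowest at 5 µg in week 3, at -2.85, where the other HF5 arrays had -1.47 to 0.13, so week 3 gave its smallest difference, -0.65. In the traffic of membranes and proteins, Snx11, a sorting nexin, had -1.53 ± 0.32, Ptpn23, which sorts receptors in endosomes, had -1.49 ± 0.33, and Tomm40, the pore through which mitochondria import proteins, had -1.45 ± 0.32. In signalling, Dnmbp, an activator of Cdc42, had -1.60 ± 0.36 and Adcy3, an adenylyl cyclase, had -1.60 ± 0.36. The uncharacterised LOC100045067 and LOC100045535 had -2.02 ± 0.44 and -1.76 ± 0.37. LOC100045067 entered the test by its HF5 arrays alone. It was at the floor on the HF75 arrays of weeks 3 and 12, and Dnmbp and Adcy3 were so in week 12, so the sizes of these 3 are inexact. With a normexp background the lower genes moved closer to 0, from -1.15 for Fgfr1 to 0.00079 for Dnmbp, with Fxr2 at -0.61, LOC100045067 at -0.45, Ptpn23 at -0.43 and Adcy3 at -0.25. The adjusted p in limma was 0.306 to 0.310 for the 12 lower genes, of which 10 were lower in 5 of 5 weeks. Dnmbp and LOC100045067 were at the floor on both week 3 arrays, so their direction counts in the 4 other weeks only. In limma the adjusted p was 0.306 for the 12 higher genes, each higher in 5 of 5 weeks as the rule that named them requires. For Arhgap19, Gm2129, Gm4085, Gm4736 and Olfr310, which entered the test by their HF75 arrays alone, the p and the direction rest in part on the filter and the floor.

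**Figure D1:**
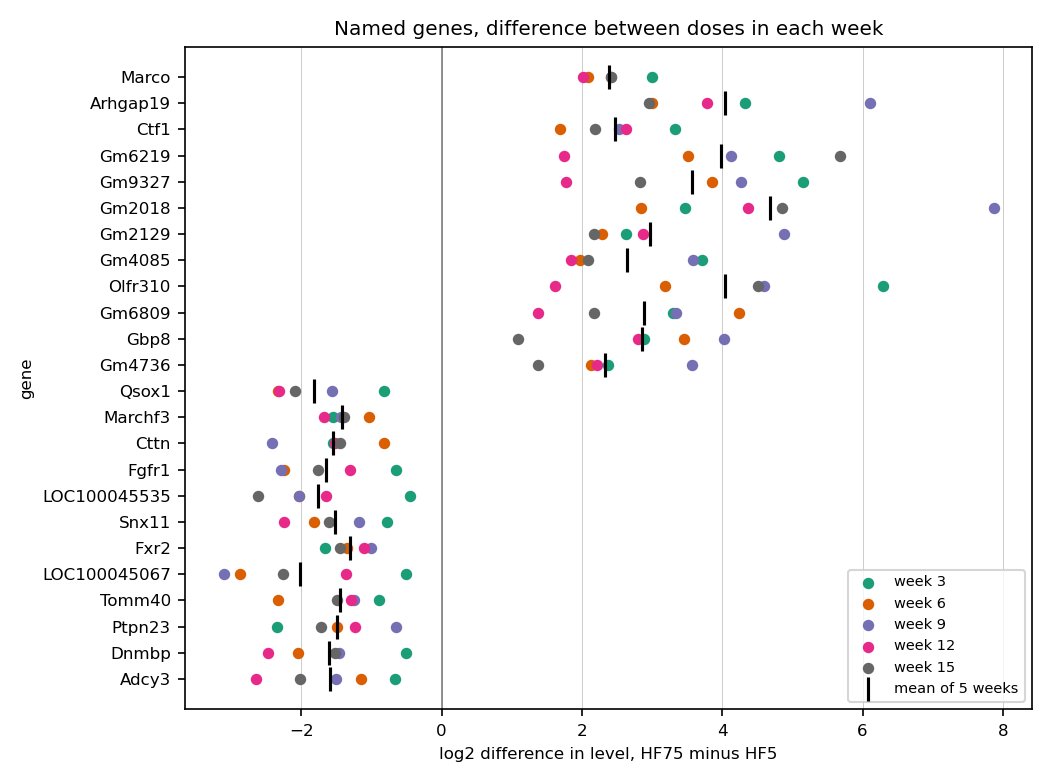
Log2 difference in level, HF75 minus HF5, of the 24 named genes in each week (points) and over the 5 weeks (bars). The rule that named the genes puts all points of the 12 higher genes to the right of 0. It puts all points of the 12 lower genes to the left. The week 3 points of Dnmbp and LOC100045067 show only the gap between the floors of the arrays. The higher genes spread more widely, up to 7.87 for Gm2018 in week 9.

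The probes of the higher genes shared a feature of sequence. It was noticed after the values were seen, so it is described and not tested. Of the 12 named higher genes, 11 had a 60-base probe with GAGAG or GGAGGA or GAGGAG in it, and of the 12 lower genes, 0 had one. Over all tested genes, 2358 (11.5%) had such a probe, as had 10.2% of all 40628 probes. The windows of 30 bases printed here, as the array files give them, show the letters in capitals for the named genes whose probes hold them at different places, and Olfr310, whose probe holds none.
Marco: gagcccGAGAGgtcatcagtgtgtccccag
Arhgap19: ggtctgaggcgaaGAGAGAGgggggaaaag
Ctf1: aggctggtcaatgGAGAGAGaaaggcagaa
Gm6219 and Gm9327: cctttggtggagGGAGGAGAGaagatcaaa
Gm6809: GAGAGccaggggaaaggggaaaggcctcgg
Gbp8: tctacatggacatGAGAGAGaagattgagc
Gm4736: tctcattccttaccaGAGAGaaggtgaaca
Olfr310: gttatattgcgagtttttcccatatttgaa

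Among the 106 genes at least 2-fold higher in all 5 pairs, 94 (88.7%) had a probe with one of these 3 words. Among the 759 genes higher in all 5 pairs with a mean difference of at least 1, 406 (53.5%) had one, and among the 198 genes lower by the same rule, 11 (5.56%) had one. With these probes left out, an alternative chosen after seeing the data, 18188 genes remained, their median difference was 0.01, and 12 were at least 2-fold higher in all 5 pairs. In limma, 0 of these were higher and 0 lower at an adjusted p under 0.05, and 613 and 500 were at an unadjusted p under 0.05. The part of the probe sequence in the result of any 1 gene was not tested.

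The word GAGAGAG went with the largest values. It was in the probe of 182 tested genes (0.886%) and in 0.569% of all probes. A probe could enter the test by either dose alone, and a gene's brightest probe was used. Some of the 182, such as Arhgap19, entered by their HF75 arrays alone. The share and the values below thus rest in part on these rules, and how far was not tested. These 182 genes had a median difference of 2.03 (quartiles 0.77 and 3.45), where all genes had 0.02, and 118 of them (64.8%) were higher in all 5 pairs. Of all 8351 words of 7 letters found in at least 60 genes, it had the highest median, and AGAGAGA came next with 1.45. GGAGGAG, in 186 genes, had 1.01. The complementary strand did not show this: CTCTCTC, in 95 genes, had a median of -0.19 and 0 of the 106 genes. TCCTCC had -0.04 and CTCCTC -0.05.

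Up to 9 bases, the longer the run of alternating G and A in a probe, the higher the median. It was -0.02, 0.01 and 0.02 for runs of 2, 3 and 4 bases, 0.08 for 5 and 0.16 for 6. It was 0.80 for 7 bases (245 genes), 2.66 for 8 (80 genes), 3.17 for 9 (16 genes) and 1.99 for 10 or more (19 genes). The rise was thus steep between 6 and 8 bases, and the bins of the longest runs were small. The place of GAGAGAG in the probe made less difference, with medians of 1.81, 2.04 and 2.15 for words that begin at bases 1 to 18, 19 to 36 and 37 to 54.

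The median of the 182 genes was 2.44 in week 3, 1.68 in week 6, 4.06 in week 9 and 0.73 in week 15, with week 12 between the last and week 6. It was positive in every week, largest in week 9 and smallest in weeks 12 and 15. Only in those last weeks were both doses scanned on the same day, and the median of the genes' mean differences over the 2 was 0.95. A fit with the scan date as a block rests on these same 2 weeks, so it gives the same median by construction. Without weeks 3 and 9 the median of the 182 genes was 1.28, and without week 9 alone it was 1.59.

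The mean level of these probes was -0.28, -1.81, -2.26, 1.19 and 0.27 on the HF5 arrays and 1.94, 0.36, 1.76, 2.25 and 1.02 on the HF75 arrays. Every HF75 array was above the HF5 array of its week, and the HF5 arrays swung more between weeks. HFC had -0.09, -1.93, -2.52, 0.60 and -0.49, within 1 of HF5 in each week, and was scanned on the same day as HF5 in each week. HF20 had 0.23, -2.14, -1.57, -2.42 and -1.37, and was scanned with HF75 in weeks 3, 12 and 15 and with HF5 in weeks 6 to 15. In week 12, when all 4 groups were scanned on the same day, HF20 had -2.42 and HF75 had 2.25. That HF20 array also had mean levels of 5.54 over the adipocyte list and -5.73 over the M1-type list, where HF75 had 1.43 and -0.50. The group means of the GAGAGAG probes were -0.58 ± 1.44 at 5 µg, 1.47 ± 0.77 at 75 µg, -0.89 ± 1.30 for HFC and -1.45 ± 1.03 for HF20. These levels were not tested.

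**Figure D2:**
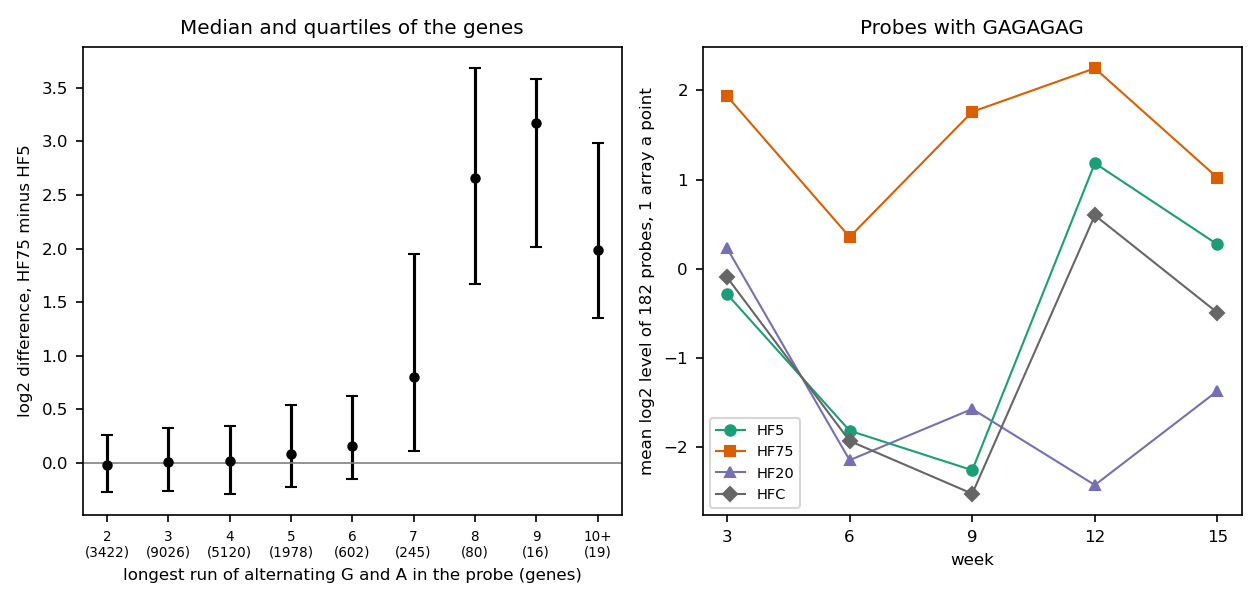
Left, median log2 difference, HF75 minus HF5, with quartiles, of genes grouped by the longest run of alternating G and A in their probe. Right, mean log2 level of the 182 GAGAGAG probes on each array by week, where the HF75 arrays lie between 0.36 and 2.25 and above HF5, HFC and HF20 in every week.

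Other probes of the same genes were read for comparison. There were 89 genes with a GAGAGAG probe and a probe without any of the 3 words. Each probe had passed the same filter by either dose, and the GAGAGAG probe of Arhgap19 did so by its HF75 arrays alone. The median difference was 1.29 by the GAGAGAG probes and -0.11 by the others, and the GAGAGAG probe gave the higher value in 76 of the 89 genes. At least 2-fold higher were 49 genes by the GAGAGAG probe and 5 by the others. So for many genes the direction depended on which probe was read.

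Fgf2, a growth factor for fibroblasts and vessels, shows the case. Its GAGAGAG probe had levels of 1.99, -3.16, -3.18, 4.08 and 2.80 at 5 µg and of 4.83, 2.84, 4.31, 5.79 and 3.76 at 75 µg, a difference of 3.80. Its other probe was dim at both doses and had a difference of -0.11, which is inexact because it was at the floor on the HF5 array of week 3. Nrg1, a ligand of ErbB receptors, had 4.58 by its GAGAGAG probe and -0.59 by the other, but the former was at the floor on 1 array and the latter on 3, so these values are inexact. Lifr, the receptor of leukemia inhibitory factor, which also serves cardiotrophin 1, had 3.41 by its GAGAGAG probe and -0.39, -0.10, 0.16 and 0.40 by 4 others. The Lifr probe with 0.40 was at the floor on the HF5 array of week 3, so that value is inexact. Arhgap19 had 4.03 by the probe used and 1.07 by its other probe, which was at the floor on 6 of 10 arrays and so gives no exact value. In 13 genes the GAGAGAG probe was not the higher, and in Golgb1, a Golgi tether, the probes were mixed, with -1.19 by its GAGAGAG probe and -1.41, -1.23, -0.41 and -0.16 by 4 others. The probes of Nrg1, Fgf2 and Lifr are printed to show how the probes of 1 gene differ, with the words in capitals.
Nrg1, probe used: gagcatattgtgGAGAGAGaagtggagacc
Nrg1, other probe: aactacgtaatggccagcttctacaagcat
Fgf2, probe used: ctccaagcagaaGAGAGAGGAGttgtgtct
Fgf2, other probe: tttcttctttgaacgactggaatctaataa
Lifr, probe used: actttcagaaagGAGAGAGAGatacgccca
Lifr, other probe: actaaccaggtcaccctttgtcacttcagt

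**Figure D3:**
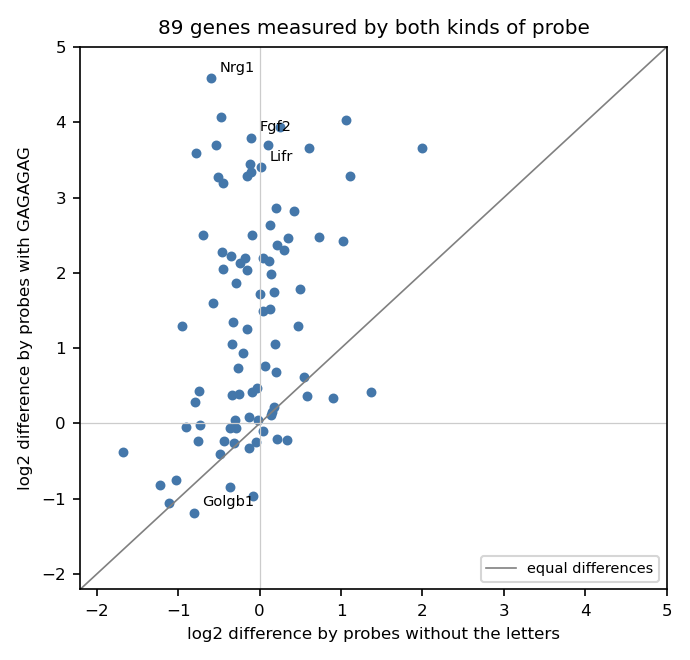
Log2 difference, HF75 minus HF5, of 89 genes by their GAGAGAG probes (vertical) and by their probes without the 3 words (horizontal), 1 point a gene. Of the 89 points, 76 lie above the line of equal differences.

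Genes higher at 75 µg whose probe lacks the 3 words were then listed by the same order of p, after the values were seen. The rule again requires the same sign in every week. Besides Olfr310 they included Pgr, the progesterone receptor, with 4.42 ± 0.88, Adamdec1, a protease of macrophages and dendritic cells, with 2.51 ± 0.51, Chd5, a chromatin remodeller, with 2.48 ± 0.50, Cldn11, a tight junction protein, with 2.19 ± 0.42, and Gria1, a glutamate receptor subunit, with 2.19 ± 0.39. Ppp1r3a, which brings a phosphatase to glycogen, had 2.04 ± 0.36. Myl10, a myosin light chain, had 1.92 ± 0.39, and Kcnh8, a potassium channel, had 1.72 ± 0.35. Myl10 was well above background on 1 HF5 array and entered the test by its HF75 arrays alone. Its p and direction thus rest in part on the filter and the floor. Most were dim at 5 µg, and some readings there were at the floor, so these sizes are inexact. With a normexp background Pgr had 2.72, Chd5 1.53, Ppp1r3a 1.14, Kcnh8 1.03 and Myl10 0.80. The predicted gene Gm6116 was well above background on all 10 arrays, with levels of -3.38, -2.65, -2.80, -3.09 and -3.12 at 5 µg and of -0.83, -1.55, -1.09, -1.51 and -1.59 at 75 µg. Its groups did not overlap, and the difference was 1.69 ± 0.32, higher in 5 of 5 weeks (adjusted p in limma 0.306).

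Adamdec1 had levels of -0.12, -4.42, -1.93, 2.07 and 1.34 at 5 µg and of 2.20, -0.15, 1.34, 2.86 and 3.21 at 75 µg. It was higher in each week, with the smallest gap in week 12 and low values in week 6 at both doses.

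Lists of genes for cell types and pathways are described by their counts and medians. Over all genes the median was 0.02, and 52.2% were higher on average at 75 µg. Of each list none of the members passed limma's adjusted threshold, so values are given without a call. The 2 members of a list with the brightest probes were to be named, though 3 lists are given with 1 of them. Any further member is named after its values were seen, for its size or its sign. The brightest members were saturated on some arrays, more often at 5 µg, which caps their level there and leaves their differences inexact. A probe saturated on both arrays of a week differs there by the shift of their 75th percentiles. That percentile was lower at 75 µg in every week, so such a probe reads higher at 75 µg whatever its RNA. The direction of Fabp4, Dcn, Cd74, Cox6a1, Junb, Rplp0, Rps3 and Rpl5 was therefore set in part by the scaling. Of the members named, Mx1, Mmp13, Nfkbia, Lat, Cd79b, Ltb, S100a8, Cd34, Hsp90b1, Dpt and Per1 have a probe that holds 1 of the 3 words, and all but Dpt and Per1 were higher on average.

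Macrophage markers were lower on average at 75 µg in 11 of 12 cases, with a median of -0.66. The weekly medians were 0.32, -0.68, -0.50, -0.31 and -1.26. The mean level of the list was 1.18, 2.60, 1.63, 1.44 and 2.35 on the HF5 arrays and 1.18, 1.45, 1.28, 1.09 and 1.25 on the HF75 arrays. The HF75 arrays were thus alike, and the HF5 arrays of weeks 6, 9 and 15 lay above them all. The median was -0.78 without weeks 3 and 9, and -0.74 over the weeks scanned on the same day.

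Among these markers Adgre1, the surface protein F4/80 (listed on the array as Emr1), had -0.56 ± 0.29 and was lower in 5 of 5 weeks, and so was the endosomal glycoprotein Cd68 with -1.02 ± 0.45. Csf1r, the receptor on which macrophages depend for survival, had -1.11 ± 0.39 and was lower in 4 of 5. Mpeg1 had -0.14 ± 0.32, and Cd14, a co-receptor for bacterial lipopolysaccharide, had -1.13 ± 0.58. Aif1, an actin-bundling protein of macrophages, went the other way with 0.72 ± 0.28, higher in 5 of 5 weeks. None of the 12 probes holds the 3 words.

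Macrophages that take up lipid express Trem2 and its companions. This list had 10 of 12 members lower and a median of -0.30, with cathepsins Ctsb at -0.19 ± 0.32 and Ctsd at -0.25 ± 0.41. The exceptions were Spp1 and Cd9. Spp1, osteopontin, had 1.77 ± 0.54, and its weekly differences were 2.78, 1.88, 3.39, 1.11 and -0.33. The tetraspanin Cd9 had 1.01 ± 0.42. The lysosome list was lower in 10 of 13 members with a median of -0.19. Ctsl, a cathepsin, had -0.02 ± 0.37, and Npc2, a carrier of cholesterol, had -1.05 ± 0.47. Without weeks 3 and 9 the medians of these lists were -0.49 and -0.27.

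Alternatively activated (M2-type) markers were lower in 5 of 7 members, with a median of -0.53, and -0.44 without weeks 3 and 9. Retnla, a secreted marker of this state, had -0.53 ± 0.34, Chil3, a chitinase-like protein, 0.05 ± 0.69, and Cd163, the haemoglobin scavenger receptor, -0.87 ± 0.41. Inflammatory (M1-type) genes were higher in 5 of 7 with a median of 0.24. Of the 5, Il12b was well above background on 1 HF5 and 3 HF75 arrays. It entered the test by its HF75 arrays alone, so its direction rests in part on the filter and the floor. Il6 had weekly differences of 0.95, 0.75, 6.60, -0.34 and -0.34, and Il1b had -3.26, 1.09, 6.58, -0.09 and -1.52. The list's median was 0.75 in week 6, 4.21 in week 9 and negative in the other weeks, and it was -0.35 without weeks 3 and 9.

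Chemokines behaved likewise: 8 of 15 were higher, the median was 0.08, week 9 gave 3.29, and the median without weeks 3 and 9 was -0.84. Its sign turned with a normexp background, with quantile normalization and without the 2 probes that hold the letters. Ccl6 had -0.86 ± 0.40 and Ccl4 0.36 ± 1.05. In the Toll-like receptor and NF-kappaB list 9 of 11 were lower, with a median of -0.19, and -0.43 without weeks 3 and 9. Myd88, the adaptor of most of these receptors, had -0.57 ± 0.29, lower in 5 of 5 weeks, while the inhibitors Nfkbia, saturated on 6 of 10 arrays, and Tnfaip3 had 0.75 ± 0.45 and 0.62 ± 0.98.

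MHC class II genes, which present antigen, were lower in 4 of 7 with a median of -0.17, which was positive under normexp and -0.72 without weeks 3 and 9. Cd74, the invariant chain, was saturated on 9 of 10 arrays and had 0.57 ± 0.35, H2-Ab1 -0.35 ± 0.41 and H2-Aa -1.06 ± 0.47. Complement genes had a median of -0.07, with C3, saturated on 4 HF5 arrays and 1 HF75 array, at 0.67 ± 0.32, and Cfd, the protease adipsin that fat cells secrete, at 1.74 ± 0.49. C3 was 0.10 apart under quantile normalization. The complement median was -0.53 without weeks 3 and 9.

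Interferon-stimulated genes were lower in 8 of 13 with a median of -0.28, and -0.66 without weeks 3 and 9. Their weekly medians were 0.46, 0.15, 0.36, -0.29 and -1.59, and the HF5 array of week 15 was the highest at 5 µg, with a mean level of 1.76. The HF75 array of week 3 was the highest at 75 µg, with 1.20. Rsad2, an antiviral enzyme, had -1.09 ± 0.51, lower in 5 of 5 weeks. Mx1, an antiviral GTPase, had 2.14 ± 0.57, higher in 5 of 5, and its probe holds the letters. Isg15, a ubiquitin-like protein, had -0.43 ± 0.59.

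Lymphocyte and lymph node genes varied widely between arrays of the same dose. The lymph node list, with chemokines and receptors that place lymphocytes, had mean levels of 1.81, -3.01, -4.52, 1.45 and -1.25 at 5 µg and of 2.03, -3.87, 2.30, 1.36 and -3.42 at 75 µg. It was low in weeks 6 and 15 at both doses, high in weeks 3 and 12 at both, and in week 9 low at 5 µg and high at 75 µg. HFC had -1.94 in week 12 and 1.34 in week 15, unlike HF5 of those weeks. Of its 9 members 8 were higher on average, with a median of 0.71, and without weeks 3 and 9 the median was -1.03. Ccl19, which draws T cells, had 1.51 ± 0.59, Ltb, lymphotoxin beta, 0.71 ± 0.79, and Glycam1, a mucin of the venules where lymphocytes enter, differed by 11.5 in week 9, against an HF5 reading at the floor.

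B cell genes were higher in 7 of 7 with a median of 0.52, with Cd79b at 0.91 ± 1.01 and Ms4a1 at 0.52 ± 1.55. Of the 7, Blk was well above background on 2 HF5 and 3 HF75 arrays. It entered the test by its HF75 arrays alone, so its direction rests in part on the filter and the floor. T cell genes were higher in 7 of 9 with a median of 0.05, led by Cd3d at 0.34 ± 1.01 and Lat at 1.18 ± 0.90. Cytotoxic lymphocyte genes were higher in 5 of 8 with 0.13, and their brightest members Nkg7 and Klrd1 had -0.03 ± 0.75 and 0.16 ± 0.73. In week 9 these medians were 5.78, 4.84 and 2.85, and without weeks 3 and 9 they were -0.73, -0.96 and -0.85. The same held for cell cycle genes, higher in 12 of 12 with a median of 0.43. Their week 9 median was 2.83, and without weeks 3 and 9 it was -0.09. Mki67 had 0.79 ± 0.52 and Tyms 0.30 ± 0.29. The part of lymph node RNA in these differences was not tested.

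Neutrophil genes ran from a median of -3.46 in week 3 to 4.69 in week 9, with -0.97, 1.68 and 0.82 in weeks 6, 12 and 15. Their median was 0.76, and S100a9 and S100a8, calcium-binding proteins of neutrophils, had 0.94 ± 1.05 and 0.76 ± 1.26. Mast cell genes were lower in 8 of 8 with a median of -0.72, though week 12 gave 1.33, and the median was -0.55 without weeks 3 and 9. Hdc, which makes histamine, had -0.82 ± 0.69, Cma1, a chymase, -0.63 ± 0.51, and Tpsab1, a tryptase, -1.83 ± 0.75. Red cell genes were lower in 4 of 4 with -0.58, and -0.86 without weeks 3 and 9, with the globins Hbb-bt at -0.61 ± 0.68 and Hba-a1 at -0.70 ± 0.78. They were lower in weeks 3, 6 and 15 and higher in weeks 9 and 12.

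Skeletal muscle genes were higher on average in 12 of 12 with a median of 1.29. The mean level was 0.88, -1.62, -0.47, 1.70 and -0.11 at 5 µg and 3.51, -2.58, 2.74, 1.80 and 1.35 at 75 µg. Weeks 3, 9 and 15 were higher at 75 µg, week 12 was about equal and week 6 was lower. The fast-fibre genes Tnni2, Myl1 and Pvalb were higher in 5 of 5 weeks, with 1.87 ± 0.68, 1.03 ± 0.31 and 1.78 ± 0.60, and Acta1, skeletal actin, had 0.43 ± 0.52. Without weeks 3 and 9 the list's median was 0.22, and over weeks 12 and 15 it was 0.84. On HFC the list's mean was 5.17 in week 12 and -3.99 in week 9.

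Epithelial genes had a median of 0.38, and 0.04 without the 2 probes that hold the letters, with Krt18 at 1.11 ± 0.87 and Krt8 at 1.20 ± 1.18. The median was -0.35 without weeks 3 and 9. Krt5, a keratin of basal epithelium, differed by 2.02, -5.37, -0.58, 1.40 and -6.33, as the HF5 arrays of weeks 6 and 15 were rich in the list, with means of 2.65 and 1.23.

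Adipocyte genes had a median of 0.12, with 7 of 12 higher, and the sign turned under normexp and quantile normalization. Fabp4, saturated on 9 of 10 arrays, had 0.75 ± 0.33, Plin4, which coats lipid droplets, 0.21 ± 0.46, Adipoq, adiponectin, 1.04 ± 0.77, and Lep, leptin, -0.95 ± 0.86. Week 9, when HF5, HFC and HF20 were all rich in adipocyte RNA and HF75 was less so, gave a median of -3.25, and without weeks 3 and 9 the median was 0.44. Lipogenesis genes had -0.27 with week 9 at -2.16, and 0.17 without weeks 3 and 9. The member with the brightest probe was Fasn, fatty acid synthase, with 0.27 ± 0.30, followed by its regulator Srebf1 with -0.39 ± 0.46.

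Fatty acid oxidation genes had a median of -0.17, and 0.29 without weeks 3 and 9, with Acadvl, which begins the oxidation of long chains, at -0.38 ± 0.38. Brown and beige fat genes were higher in 8 of 9 with 0.41, and 0.80 without weeks 3 and 9. Cox7a1, a subunit of cytochrome oxidase in brown fat and muscle, had 1.05 ± 0.40, higher in 5 of 5 weeks. Prdm16, which directs brown fat fate, had 0.48 ± 0.72. Ucp1, the uncoupling protein, was dim, with means of -3.52 ± 2.08 at 5 µg and -3.11 ± 1.76 at 75 µg.

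Insulin signalling genes were lower in 10 of 13 with a median of -0.07. Akt2, the kinase that carries the insulin signal in fat and muscle, was lower in 5 of 5 weeks. Its weekly differences were -0.81, -1.30, -1.92, -1.05 and -0.79, with a mean of -1.17 ± 0.31. Irs2, an insulin receptor substrate, had -0.07 ± 0.62 and Akt1 -0.15 ± 0.29. The insulin signalling median was 0.23 without weeks 3 and 9. Cholesterol synthesis genes had -0.14, and -0.35 without weeks 3 and 9. Insig1, which holds this pathway back, had -1.02 ± 0.29 and was lower in 5 of 5, with Hmgcs1, an early enzyme of the pathway, at 0.32 ± 0.46.

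Preadipocyte and fibroblast genes had a median of 0.16, and -0.21 without weeks 3 and 9. Dcn, saturated on 7 of 10 arrays, had 0.95 ± 0.34, the progenitor surface protein Cd34 had 0.46 ± 0.43, and Dpt, dermatopontin of the matrix, had -1.61 ± 0.47, lower in 5 of 5. Collagen and matrix genes were lower in 11 of 15 with -0.24, and -0.65 without weeks 3 and 9. The fibrillar collagens Col1a2 and Col3a1 had 0.42 ± 0.40 and 0.28 ± 0.36, with saturation on 4 and 2 HF5 arrays and on 0 HF75 arrays. Endothelial genes were higher in 9 of 10 with 0.47. Their weekly medians were 4.79, 0.49, -1.55, -0.76 and -0.05. Without weeks 3 and 9 the endothelial median was -0.06, and Flt1 and Vwf had 0.59 ± 0.82 and 1.04 ± 0.80 over all weeks.

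Matrix proteases and their inhibitors had a median of 0.01, which was negative under quantile normalization, -0.06 without the probe that holds the letters and -0.35 without weeks 3 and 9. Mmp13, a collagenase, had 3.50 ± 0.87, higher in 5 of 5 weeks, and its probe holds the letters, while Mmp12, the macrophage elastase, had -1.38 ± 0.54. Timp2 and Timp3, protease inhibitors, had 0.35 ± 0.40 and 0.48 ± 0.59. TGF-beta and fibrosis genes had a median of 0.07, and 0.15 without weeks 3 and 9. In that list Acta2, smooth muscle actin, had 0.90 ± 0.91, Tgfbr2 had -0.45 ± 0.32, and Smad3, which carries the TGF-beta signal, had -0.63 ± 0.28, lower in 5 of 5. Hypoxia and angiogenesis genes had -0.10, with Ldha at -0.17 ± 0.39, Pgk1 at -0.23 ± 0.28 and Vegfa at -1.27 ± 0.56, and a median of 0.04 without weeks 3 and 9.

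Early response genes of the AP-1 group were higher on average in 13 of 15 with a median of 0.73. Fos had 2.03 ± 0.90 and Egr2 1.17 ± 0.47, each higher in 5 of 5 weeks. Junb had 1.34 ± 0.72 and Nr4a1 1.18 ± 0.75, with saturation on 9 and 6 of 10 arrays. Week 9 held most of it, with a median of 3.11, and without weeks 3 and 9 the median was 0.10. The mean level of the list was -0.68 on the HF5 array of week 9 and 2.42 to 3.91 on the other 4 of that dose, and HFC and HF20 had 1.59 and -0.38 in week 9. Ribosomal protein genes were higher in 10 of 13 with 0.46, and the sign turned under quantile normalization. The ribosomal median was 0.18 without weeks 3 and 9. Rplp0 had 0.60 ± 0.32, Rps3 0.68 ± 0.33 and Rpl5 0.46 ± 0.35, and these were saturated on 8, 10 and 9 of 10 arrays. The sign and size of Rps3 are thus set by the scaling, and those of Rplp0 and Rpl5 largely so. The value of Rps3 measures no difference in RNA, and the part of RNA in those of Rplp0 and Rpl5 was not tested.

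Stress and metabolic lists follow. Heat shock genes had a median of 0.11, and 0.23 without weeks 3 and 9, with Hspa8 at 0.11 ± 0.30 and Hspa1a at 0.92 ± 0.42, and the sign turned under normexp. Unfolded protein and amino acid stress genes had -0.10, with -0.06 without weeks 3 and 9 and -0.51 without the probes that hold the letters. In that list were the chaperones Hspa5 at 0.01 ± 0.28 and Hsp90b1 at 0.50 ± 0.30, whose probe holds the letters, and Asns, asparagine synthetase, at -1.15 ± 0.47, lower in 5 of 5. Antioxidant genes had -0.18, with Sod1 at 0.18 ± 0.31 and Gstm1 at 0.44 ± 0.33. Hmox1, which breaks down haem, had -2.09 ± 0.79, and its weekly differences of -2.59, -0.68, 0.43, -2.01 and -5.57 were widest in week 15.

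Xenobiotic metabolism genes had a median of 0.07, and 0.02 without weeks 3 and 9, with Gstm2 at 0.07 ± 0.51 and Aldh1a1 at 0.49 ± 0.68, and Cyp1a1, which plant compounds can induce through the aryl hydrocarbon receptor, had 0.65 ± 0.49. The median turned sign under quantile normalization. Glucocorticoid and metallothionein genes had -0.02, and 0.01 without weeks 3 and 9, with Mt2 at 0.26 ± 0.42 and Mt1 at 0.22 ± 0.31. Circadian clock genes had -0.21, with Dbp at 0.40 ± 0.56 and Per1 at -0.53 ± 0.42, and Per3 had -1.04 ± 0.47, lower in 5 of 5. The clock median was positive under normexp, and 0.04 without weeks 3 and 9. Respiratory chain genes had -0.14, with Cox6a1, saturated on 8 of 10 arrays, at 0.60 ± 0.33 and Atp5b at 0.13 ± 0.31, and 0.19 without weeks 3 and 9. The Y chromosome genes had 0.06, and 0.52 without weeks 3 and 9, with Eif2s3y at 0.22 ± 0.35 and Ddx3y at -0.13 ± 0.35, and Xist was not well above background on enough arrays to enter the test.

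**Figure D4:**
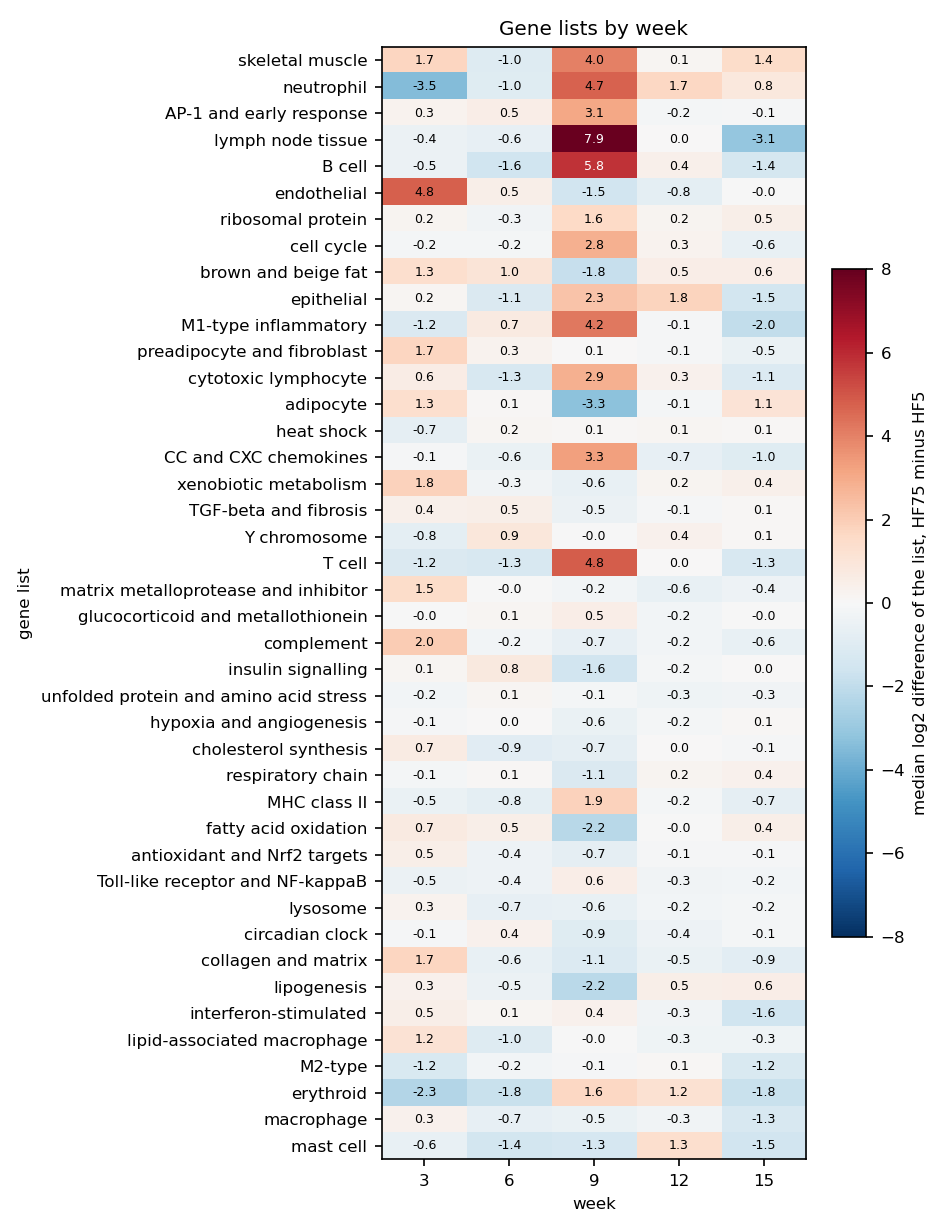
Median log2 difference, HF75 minus HF5, of 42 gene lists in each week, ordered by their median over the 5 weeks. The values run from -3.46 for neutrophil genes in week 3 to 7.90 for the lymph node list in week 9.

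The weeks differed in how far the doses lay apart. At least 2-fold higher at 75 µg were 23.4% of the 20546 genes in week 3, 13.6% in week 6, 27.1% in week 9, 6.94% in week 12 and 7.99% in week 15, and at least 2-fold lower were 16.04%, 16.4%, 19.6%, 7.92% and 10.2%. Weeks 12 and 15, scanned on the same day for both doses, had the smallest shares, and week 9 the largest. Among genes well above background on both arrays of week 3, 17.6% were at least 2-fold higher and 18.1% at least 2-fold lower, so the excess of higher genes in that week turned. Genes are not independent of each other, and across them the differences of 2 weeks correlated by -0.0094 to 0.31 over the 10 pairs of weeks, with a median of 0.14. A gene's difference in 1 week thus said little about its difference in another. The Spearman correlation of the difference with the share of G and C in the probe was 0.0848, -0.407, 0.0741, -0.168 and -0.115 in week order, so in week 6 the genes with fewer G and C tended to be higher at 75 µg.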

How the data were processed

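Per the file headers, the deposited intensity values were made by Feature Extraction 10.5.1.1 (the labels name version 9.1), with background subtracted and spatial trends corrected within each array and no scaling between arrays. The authors' table of log2 fold changes holds their own comparisons and was not used. Log2 intensities were shifted by each array's 75th percentile, outlier spots dropped and spots of a probe averaged. Readings not well above background took at least the lowest level that was, on that array. A gene was its probe of highest mean level and was tested if well above background on at least 3 of 5 arrays of either dose. The test was limma 3.58.1 in R 4.3.3 with the week as a block. Files were read with data.table (version 1.17.8), and tables used Python 3.11.15, NumPy 2.4.6, pandas 2.3.3 and SciPy 1.17.1. The scripts were tested on simulated data.

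Named were the 12 genes per direction of lowest p with a mean log2 difference of at least 1 and the same sign in all 5 pairs. Named too were the 2 members with the brightest probes in each of 43 lists. Members and lists were chosen with earlier results of these data known. Names came by accession from the RefSeq table of GRCm38.p6, which held that of 14862 genes (72.3%), and otherwise from the array. The week pairs the arrays by design. Deviations from the group means correlated across genes by 0.35, 0.63, -0.02, 0.40 and 0.45 within weeks 3 to 15. All 10 arrays were on different slides. Alternatives were other background corrections, normalizations, floors, filters, probe choices, arrays, weights, weeks, scan date, test and call rule. The precision is limited by the number of arrays.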

Additional observations from a re-analysis of the deposited data

Results flagged for a closer look

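In groups of 5 arrays, 96 groups of values were searched for an array whose gap to its nearest neighbour, over the range of the group, passed Dixon's 95% critical value of 0.71. In 7 groups an array stood apart, and chance gives about 1 in 20 groups. On the HF5 array of week 3, 57.3% of spots were well above background, against 68.4% to 71.3% on the others of its dose. The same array had mean log2 levels of 1.41 over the complement list (others 3.48 to 4.13), 0.11 over the collagen and matrix list (2.93 to 3.60) and -1.78 over the endothelial list (2.22 to 3.47). The HF5 array of week 9 had -4.65 over the M1-type inflammatory list (others -0.06 to 1.36) and 5.06 over the adipocyte list (0.42 to 1.48). The HF75 array of week 3 had 1.20 over the interferon-stimulated list (others 0.06 to 0.37). The causes were not tested.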

How the results depend on the processing

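In limma, 0 genes were higher and 0 lower at an adjusted p under 0.05 under each alternative, with 1 exception in 1 direction. With 20 arrays in the fit, which adds HFC and HF20, 1 gene was higher, Ctf1, whose probe holds GAGAGAG, and 0 were lower. Without the week as a block, so without the pairing, the counts were 0 and 0, with 683 and 456 at an unadjusted p under 0.05, and no call changed. In the check of the pairing, the arrays of a week resembled each other most in 2 of 5 weeks. Unadjusted counts of higher and lower genes were 818 and 215 with normexp, 1102 and 739 with quantile normalization, 1113 and 599 with a median shift, 1557 and 1412 with array weights, and 864 and 890 with the scan date as a block, a fit with 1 residual degree of freedom. The rule of a 2-fold difference in all 5 pairs, with no test, gave 106 and 2. Under alternatives chosen after seeing the data, the number of genes at least 2-fold higher in all 5 week pairs became 62 with normexp and 12 without probes that hold the 3 words, and 111 to 334 with a week left out. The number of genes at least 2-fold lower in all 5 week pairs became 0 with normexp, 8 with quantile normalization, 8 with a median shift, 5 with no floor, 5 to 46 with a week left out and 206 without weeks 3 and 9, where fewer pairs must meet the rule. With normexp all 12 named lower genes moved closer to 0, and Dnmbp turned from -1.60 to 0.00079, and for the log2 difference of Rplp0, HF75 minus HF5, 0.60 turned to -0.05 with quantile normalization. For the array measures between HF75 and HF5, percent of spots well above background, the difference of -0.829 ranged from -2.99 without week 3 to 0.232 without week 12. For the array measures between HF75 and HF5, outlier spots, -5.4 ranged from -14.8 without week 9 to 2.75 without week 3. The causes were not tested. Signal over background, a median of 3.50 to 4.05 at 75 µg and 3.60 to 7.01 at 5 µg, limits what can be read of dim genes.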
